A study of Rattus norvegicus with 6 samples.

Results

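The 5 genes described here, Lcn2, Kap, Aqp5, Muc1 and Cxcl17, encode products that the glandular epithelium of the uterus secretes or carries on its surface. They were chosen by symbol from the 13728 genes held, with their levels in these libraries already known, so their levels, ranks and spread are given as a description without a test. Bulk RNA-seq was performed on 3 samples of rat endometrial epithelial organoids (rEEOs) and 3 samples of rat bone marrow mesenchymal stem cells (rBMSCs). The rEEOs had been grown in Matrigel with expansion medium from glandular fragments of the uteri of female Sprague-Dawley rats, 5 weeks of age. That medium holds Wnt3a and R-spondin-1 as Wnt activators, noggin, the growth factors EGF and FGF10, and the inhibitors A83-01 (of TGF-beta receptors) and Y27632 (of ROCK), and no hormone treatment was stated for the sequenced rEEOs. The rBMSCs were purchased cells labeled with red fluorescent protein, grown in DMEM/F12 with serum, and served as the other cell type considered for repair of the endometrium rather than as an untreated control. Each group is a cultured cell type, and nothing in the sources states that the replicates came from separate rats or cultures, so p-values measure only the spread between these samples.

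Uterine glands release fluid, nutrients and defence proteins into the lumen, where they support the early embryo. Lcn2 (lipocalin 2) is a secreted protein that binds iron-carrying siderophores of bacteria, and its transcription is known to respond to NF-kappa B and to Nfkbiz in epithelia. Kap (kidney androgen regulated protein) was named for its androgen-dependent expression in the rodent kidney tubule and is also expressed in the rodent uterus. Aqp5 is a water channel of the apical membrane of gland cells, Muc1 is a mucin anchored in the apical membrane, and Cxcl17 is a secreted chemokine of mucosal surfaces.

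The stretches upstream of the 5 genes are shown because their base composition separates Aqp5 from the other genes and to show where the searched motifs matched. Each is the 250 bases before the transcription start in RefSeq annotation of the GRCr8 assembly, written 5′ to 3′ on the gene's own strand. The deposited table was built on Rnor_6.0, so these coordinates belong to GRCr8 alone. They lie at chr3:36081781-36082030 on the minus strand for Lcn2, chr4:168409033-168409282 on the minus strand for Kap, chr7:132601278-132601527 on the plus strand for Aqp5, chr2:176933500-176933749 on the plus strand for Muc1 and chr1:90124536-90124785 on the minus strand for Cxcl17. Capitals mark matches, on either strand, to the TATA box (TATAAA), to the CCAAT box, to the GC box (GGGCGG), to the estrogen response half-site (AGGTCA) and to the kappa B motif, spelled here as GGGA followed after any 2 bases by TTCC.
Lcn2: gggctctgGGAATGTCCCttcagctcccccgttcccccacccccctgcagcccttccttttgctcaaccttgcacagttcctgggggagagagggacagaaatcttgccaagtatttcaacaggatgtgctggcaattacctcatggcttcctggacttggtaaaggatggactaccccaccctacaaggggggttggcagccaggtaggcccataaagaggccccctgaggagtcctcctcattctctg
Kap: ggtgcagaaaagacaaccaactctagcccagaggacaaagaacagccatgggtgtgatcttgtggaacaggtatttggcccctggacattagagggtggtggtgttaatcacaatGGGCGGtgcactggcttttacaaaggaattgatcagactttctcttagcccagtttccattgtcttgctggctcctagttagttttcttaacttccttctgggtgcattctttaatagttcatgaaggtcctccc
Aqp5: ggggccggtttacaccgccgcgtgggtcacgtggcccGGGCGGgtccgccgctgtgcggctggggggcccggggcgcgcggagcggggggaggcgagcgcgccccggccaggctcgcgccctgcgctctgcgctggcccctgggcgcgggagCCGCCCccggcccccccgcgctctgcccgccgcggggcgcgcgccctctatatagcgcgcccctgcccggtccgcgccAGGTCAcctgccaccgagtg
Muc1: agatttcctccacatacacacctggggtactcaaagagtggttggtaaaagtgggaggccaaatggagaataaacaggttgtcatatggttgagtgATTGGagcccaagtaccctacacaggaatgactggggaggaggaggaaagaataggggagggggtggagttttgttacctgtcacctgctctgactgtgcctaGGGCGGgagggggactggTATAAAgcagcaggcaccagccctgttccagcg
Cxcl17: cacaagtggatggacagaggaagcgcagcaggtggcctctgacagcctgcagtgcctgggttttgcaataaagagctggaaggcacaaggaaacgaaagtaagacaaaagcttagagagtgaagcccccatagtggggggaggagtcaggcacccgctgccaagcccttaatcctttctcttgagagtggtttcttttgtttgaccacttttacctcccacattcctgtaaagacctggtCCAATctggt

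The stretch upstream of Aqp5 had a GC content of 83.2%, at percentile 99.7 of 33469 RefSeq promoters, and held 41 CpG dinucleotides. The other 4 stretches lay between 46.4% for Kap and 57.2% for Lcn2, around the median of 51.2% over all promoters, with 1 to 3 CpG dinucleotides each. The observed over expected CpG ratio was 0.95 for Aqp5 and between 0.049 and 0.18 for the others, compared to a median of 0.38. The kappa B motif, known as a binding sequence of NF-kappa B, matched upstream of Lcn2 alone among the 5, on the opposite strand at positions −242 to −233 from the start, and 1.08% of all promoters held it. TATAAA matched upstream of Muc1 alone, at positions −33 to −28, compared to 12.9% of all promoters. The half-site AGGTCA matched upstream of Aqp5 alone, compared to 14.1% of promoters. GGGCGG matched upstream of Kap, Aqp5 and Muc1 (30.5% of promoters) and CCAAT upstream of Muc1 and Cxcl17 (34.0%). Of the motifs left in lower case, CACGTG matched upstream of Aqp5 (5.59% of promoters), CACCC in 4 genes (49.2%) and GGAAG in 3 genes (63.3%). TGTTTAC and TTGCNNCAA had no match in these 5 stretches and were held by 3.21% and 1.75% of promoters. The 10 motifs were searched on both strands and were chosen after the sequences had been seen. No matches of different motifs overlapped, and a match is a run of letters, not a shown binding site.

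**Figure D1:**
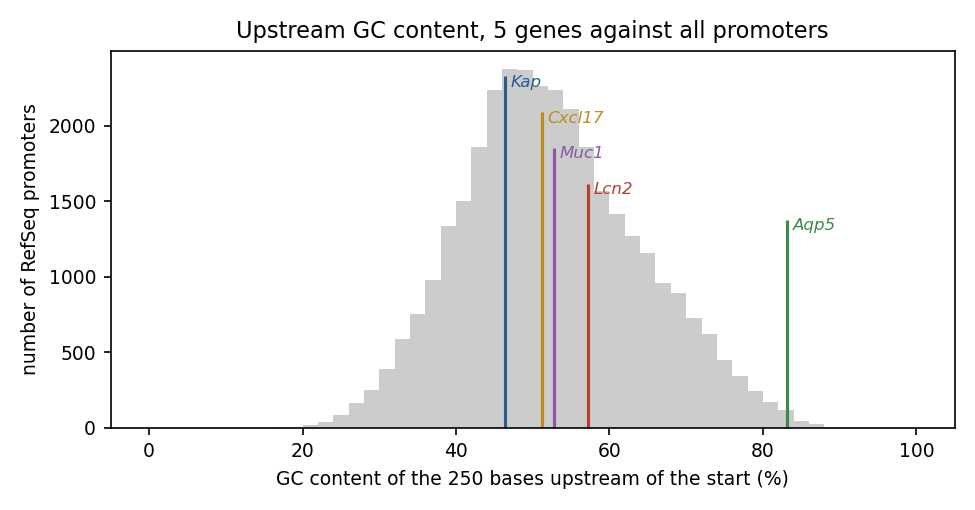
Histogram of the GC content (horizontal axis, percent) of the 250 bases upstream of the start for 33469 RefSeq promoters (vertical axis, number of promoters in bins 2 percentage points wide), with a colored line at each of the 5 genes. The line for Aqp5 stands at 83.2% in the upper tail, and the other 4 lie between 46.4% and 57.2%.

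The libraries summed to between 10457958 and 15421501 reads, and 3 reads, used below as the floor of detection, were worth between 0.181 and 0.262 CPM (counts scaled to library size with TMM factors). Log2 CPM of the rBMSCs libraries correlated with Pearson's r of 0.994 to 0.997, compared to 0.915 and 0.938 between rEEOs replicate 1 and the other 2 rEEOs libraries and 0.976 between those 2, so replicate 1 stood apart. Without replicate 1 the mean level was 12379 TPM for Lcn2, 4397 for Kap, 1543 for Aqp5, 79.6 for Muc1 and 63.1 for Cxcl17. The means over all 3 libraries are given below. Genes other than the 5 were compared by a fit over all 10607 genes with at least 10 counts in 3 libraries, and were called at an absolute log2 fold change above 2 and an adjusted p below 0.05 by edgeR's quasi-likelihood test. By these criteria 29.7% of all genes tested were called, 16.3% higher and 13.3% lower in rEEOs, and the median log2 fold change over all genes was 0.08. The balance of the calls depended on the scale, since 1733 were higher and 1412 lower here, but 1121 higher and 1202 lower with limma on log2(TPM + 1). The cell type labels were then checked against marker genes. All 8 epithelial markers were called higher in rEEOs, among them Krt8 (1148 ± 144 TPM in rEEOs and 2.67 ± 0.21 TPM in rBMSCs; SD, n = 3), Epcam and Krt18. Of 9 mesenchymal markers 8 were called lower in rEEOs, led by Col1a1 (0.087 ± 0.067 TPM compared to 18818 ± 1050 TPM), Col3a1 and Vim, which still read 171 to 297 TPM in rEEOs. The 4 ciliated cell markers held, among them Rsph1, Tekt1 and Foxj1, were called higher and summed to 11.1 to 12.7 TPM in rEEOs.

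Lcn2 (NCBI gene 170496) was the most abundant of the 5 genes. It had 6761 TPM in rEEOs replicate 1, 15064 in replicate 2 and 9694 in replicate 3, from 48167, 109292 and 69879 reads. In rBMSCs it had 0, 1 and 0 reads. The rEEOs mean of 10506 ± 4210 TPM (SD, n = 3) was the 3rd highest of the 13728 genes held. Ranks here and below are among these genes alone, which carry 81.3% to 82.7% of the TPM of each library, so genes not analysed here could move them down. Within each library it ranked 7th, 1st and 5th. In replicate 2 it stood above Eef1a1 (13200 TPM), the translation elongation factor, and in replicate 3 below Igfbp7 (19691 TPM). In CPM it was at least 26093-fold higher than the floor in rBMSCs on average, and at least 12486-fold in the lowest rEEOs library.

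Kap (NCBI gene 24937) followed in the mean. It had 5180, 1128 and 7665 TPM in rEEOs replicates 1, 2 and 3, from 24369, 5584 and 37164 reads, and 0 reads in each rBMSCs library. Replicate 2 was the low one, where Lcn2 was highest. The mean was 4658 ± 3300 TPM (SD, n = 3), 22nd of the genes held, while the ranks in the libraries were 10th, 111th and 8th. The difference from rBMSCs was at least 7202-fold on average and at least 2094-fold in the lowest rEEOs library. Since Kap is best known from the kidney tubule, tubule markers were read beside it. Only 2 of 8 were held, Cubn at 0.37 TPM or less and Slc12a1 at 0 in each rEEOs library, and Cubn, the 1 tested, was not called, as its log2 fold change of 0.91 ± 0.30 (SE; adjusted p = 0.0357 by edgeR's quasi-likelihood test) was below the required fold.

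Aqp5 (NCBI gene 25241) had 2570, 791 and 2295 TPM in rEEOs replicates 1, 2 and 3, from 36467, 11275 and 32608 reads. It too had 0 reads in the 3 rBMSCs libraries. The mean was 1885 ± 958 TPM (SD, n = 3), 80th of the genes held, with ranks of 46, 154 and 68. As for Kap, replicate 2 was the lowest. The difference was at least 8419-fold on average and at least 4228-fold in the lowest rEEOs library, a larger bound than for Kap although its TPM was lower, because bounds were taken in CPM, which are not divided by transcript length.

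Muc1 (NCBI gene 24571) was the only one of the 5 with reads in every rBMSCs library. It had 15, 13 and 8 reads there, or 0.70, 0.57 and 0.39 TPM, and 3387, 1666 and 2389 reads in rEEOs, or 132.6, 65.3 and 93.8 TPM. The means were 97.2 ± 33.8 TPM in rEEOs and 0.553 ± 0.156 TPM in rBMSCs (SD, n = 3), and in CPM the ratio was 203.9-fold. Muc1 ranked 930th, 1440th and 1080th, so it was detected well but was not among the abundant transcripts in which Lcn2, Kap and Aqp5 stood.

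Cxcl17 (NCBI gene 308436) had the lowest mean of the 5. It had 408, 410 and 376 reads in rEEOs, or 66.8, 65.6 and 60.7 TPM, and 0 reads in each rBMSCs library. The mean was 64.4 ± 3.28 TPM (SD, n = 3), 1609th of the genes held, with ranks of 1863, 1431 and 1587. The bound was at least 131.0-fold on average, far smaller than for Kap or Aqp5 since fewer reads were counted above the same floor.

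**Figure D2:**
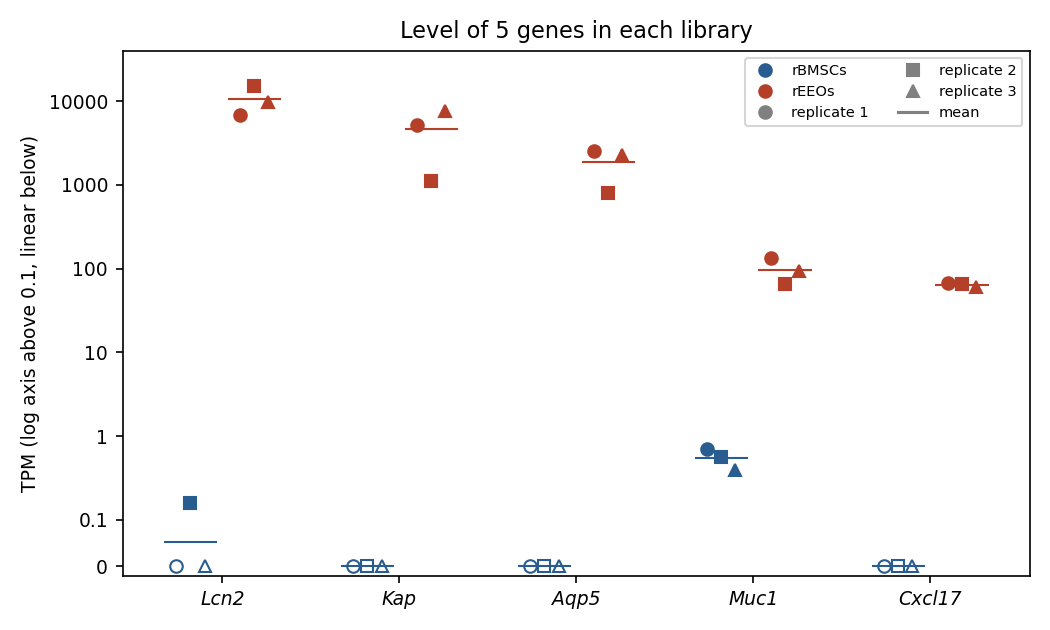
TPM of each gene (vertical axis, logarithmic above 0.1 and linear below) in the 3 rBMSCs libraries (blue) and the 3 rEEOs libraries (red), with the replicate number as the marker shape, open markers at 0 and a line at each group's mean. All rEEOs points lie above all rBMSCs points for each gene, and only Muc1 is above 0 in every rBMSCs library. The genes were chosen with these levels known, so the separation is not a result about them.

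Compared per length, Lcn2 stood above Kap, Kap above Aqp5 and Aqp5 above Muc1 in 3 of 3 rEEOs libraries. The Lcn2 to Kap ratio varied most, at 1.31 in replicate 1, 13.4 in replicate 2 and 1.26 in replicate 3. The mean log2 ratio of the 2 genes was 1.49 with an SD of 1.95 over the 3 libraries. Kap over Aqp5 was 2.02, 1.43 and 3.34. Its mean log2 ratio was 1.09 with an SD of 0.62. Aqp5 over Muc1 was 19.4, 12.1 and 24.5, which was the widest step between neighbours in replicates 1 and 3, whereas in replicate 2 the step from Lcn2 to Kap was wider. Muc1 was above Cxcl17 in 2 of 3 libraries, with a mean log2 ratio of 0.54 and an SD of 0.50. These ratios are described without a test.

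The 5 genes together made up 1.47%, 1.71% and 1.98% of all TPM in rEEOs replicates 1, 2 and 3. Their sum thus varied less than Lcn2, Kap or Aqp5 did alone. Lcn2 gave 46.0% of the sum in replicate 1, 88.0% in replicate 2 and 48.9% in replicate 3, while Kap gave 35.2%, 6.59% and 38.7%. Aqp5 gave 17.5%, 4.62% and 11.6%.

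**Figure D3:**
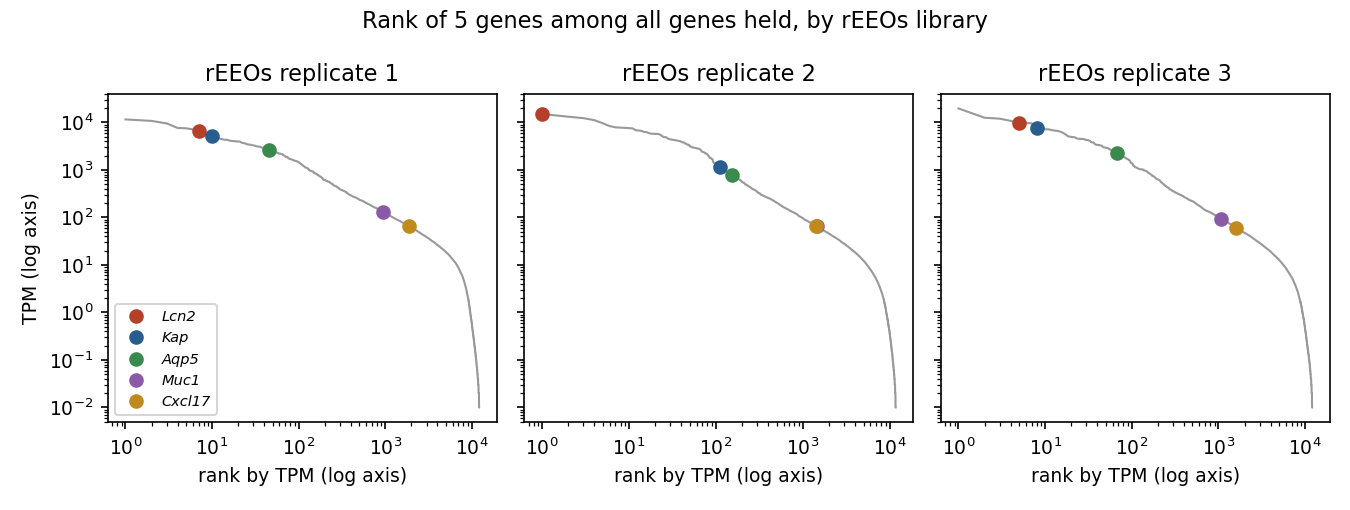
TPM (vertical axis, logarithmic) against the rank of each gene by TPM (horizontal axis, logarithmic) in each of the 3 rEEOs libraries, with all genes held as a grey line and the 5 genes as colored points. Lcn2 lies at ranks 7, 1 and 5, Kap at 10, 111 and 8, and the points of Muc1 (1440) and Cxcl17 (1431) coincide in replicate 2.

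Spread between the rEEOs libraries was taken as the SD of log2(TPM + 1) and set beside that of 2075 genes with a mean of at least 50 TPM in rEEOs, whose median SD was 0.29 with quartiles of 0.17 and 0.49. Kap had an SD of 1.46, at percentile 98.6, and its highest library was 6.80 times its lowest, compared to a median of 1.49 times over these genes. Only 4.48% of them reached 4 times. Aqp5 followed with an SD of 0.94 at percentile 93.8 and a highest to lowest ratio of 3.25. Lcn2 had an SD of 0.58 at percentile 81.5 and Muc1 of 0.51 at percentile 75.9. Cxcl17 had an SD of 0.07 at percentile 5.59. The spread of Kap and Aqp5 rested on replicate 2, and without it the SD was 0.40 for Kap and 0.12 for Aqp5. Lcn2 departed from its mean about equally in replicate 1 (by −0.56 on the log2 scale) and in replicate 2 (by 0.60), and its SD was 0.37 without replicate 2. Without replicate 1 the SD was 1.95 for Kap, 1.09 for Aqp5, 0.45 for Lcn2, 0.37 for Muc1 and 0.08 for Cxcl17. In bulk libraries such as these, fewer cells that express a gene and less of its RNA per cell cannot be told apart.

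The scale mattered for some of this order. TPM divides by transcript length and rescales each library to the same total, whereas CPM with TMM factors are scaled by read totals and do not divide by length. The 2 scales treat rEEOs replicate 1 differently. Over abundant genes 1 TPM was worth a median of 16.4, 16.5 and 16.4 reads in rEEOs replicates 1, 2 and 3. Their totals were 13883993, 10457958 and 10704121 reads. In CPM with TMM factors Cxcl17 was no longer flat. It had 24.6, 35.8 and 31.1 CPM in replicates 1, 2 and 3, an SD of 0.26 on the log2 scale and percentile 42.0, and replicate 1 was its lowest library instead of its highest. Muc1 had an SD of 0.27 at percentile 42.8. Lcn2 varied more, with 2906, 9539 and 5774 CPM and an SD of 0.86. Aqp5 had 2200, 984 and 2695, so that replicate 3 rather than replicate 1 was highest. Kap kept its order, with 1470, 487.4 and 3071 CPM and an SD of 1.34. In CPM Aqp5 thus stood above Kap in replicates 1 and 2, unlike in TPM, and below it in replicate 3. On both scales Lcn2 was highest in replicate 2, whereas Kap, Aqp5 and Muc1 were lowest there.

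**Figure D4:**
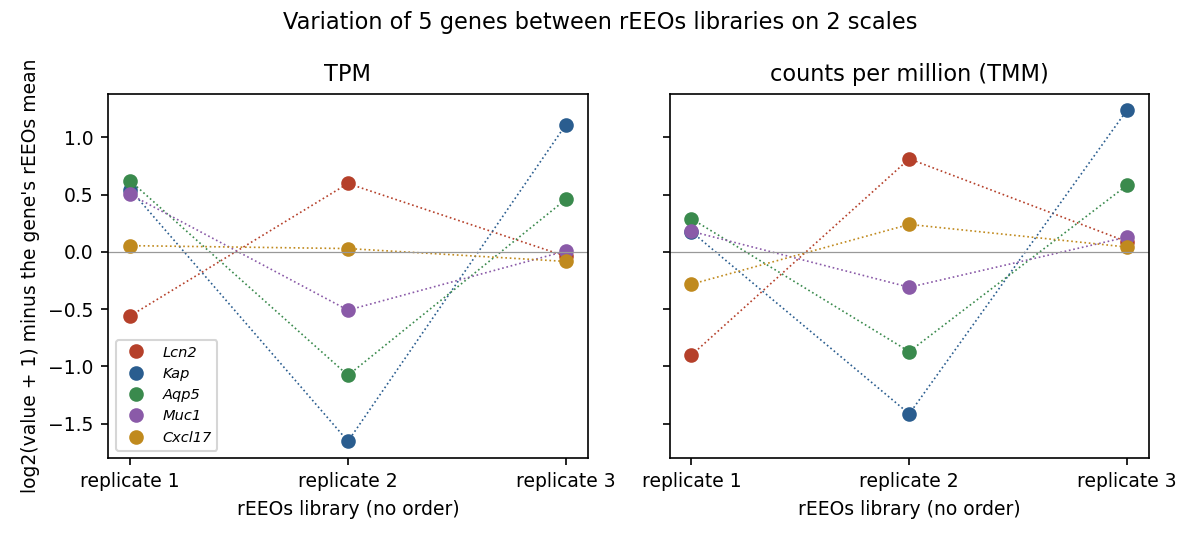
Deviation of log2(value + 1) from each gene's own rEEOs mean (vertical axis, log2 units) in the 3 rEEOs libraries (horizontal axis, which has no order; dotted lines only link points of a gene), in TPM (left) and in CPM with TMM factors (right). Lcn2 is above its mean and Kap, Aqp5 and Muc1 below theirs in replicate 2 in both panels, and Cxcl17 is flat in TPM alone.

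Among all genes held, 176 had a mean of at least 50 TPM in rEEOs and at most 1 TPM in each rBMSCs library. Lcn2 was the 1st of these by mean TPM, Kap the 2nd, Aqp5 the 6th, Muc1 the 107th and Cxcl17 the 147th, and the 5 genes held 26.5% of the summed TPM of the 176. Between Kap and Aqp5 stood Slpi, Orm1 and Igfbp1. The order of the rEEOs libraries seen for Lcn2 in TPM, with replicate 2 highest and replicate 1 lowest, was shared by 22 of the 176 (12.5%). That of Kap, with replicate 3 highest and replicate 2 lowest, was shared by 15 (8.52%). That of Aqp5 and Muc1, with replicate 1 highest and replicate 2 lowest, was the most frequent at 63 (35.8%), and that of Cxcl17 was found in 43. Replicate 2 was the lowest library for 78 of the 176 genes (44.3%), as it was for Kap, Aqp5 and Muc1, and the highest library for 37 of them (21.0%), as it was for Lcn2. Replicate 1 was the highest library for 106 of the 176 (60.2%) and the lowest for 40 (22.7%), as it was for Lcn2.

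The genes closest to each of the 5 were taken from the 176 as those with the smallest Euclidean distance between log2(TPM + 1) profiles over the 3 rEEOs libraries, each centered on its own mean. With 3 libraries this is a coarse likeness, and it says nothing of shared function. Closest to Lcn2 were Tmem213 (distance 0.21), Napsa, an aspartic protease (0.25), and Kif12, a kinesin (0.30). Napsa had 555, 1425 and 1019 TPM. Kap was 166th in the list of Lcn2, at a distance of 2.76. Closest to Kap was Oxt, the oxytocin precursor, at 0.31, with 263, 41.8 and 327 TPM in rEEOs and 0 in rBMSCs. The next were much farther away, Cxcl3 at 0.85 and Aqp5 at 0.87. Closest to Aqp5 were Trpv6, an epithelial calcium channel (0.41), Aldh1a1, a retinaldehyde dehydrogenase (0.51), and Cxcl3 (0.54). Muc1 ran closely with St14 (0.039), Prss8 (0.098), both membrane-bound serine proteases of epithelia, and the efflux transporter Abcg2 (0.11). Cxcl17 had Hpn (0.027), Gstt3 (0.029) and Hoxb6 (0.041). In CPM 13 of these 15 neighbours were the same genes.

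Around Lcn2, 12 of 20 listed defence proteins of mucosal epithelium were held and 9 were tested, of which 7 were called higher and 2 were not called (median log2 fold change 8.40). Fitted folds against groups near 0 reads are not bounds, and with such genes at their bound the median was 6.84. Slpi, an antiprotease, had 7660, 1408 and 953 TPM in rEEOs and 0 in rBMSCs. Cfb, complement factor B, had 2567, 1359 and 1122 TPM, and Pigr, which carries immunoglobulin A across epithelium, had 1025, 285 and 529 TPM. These 3 were highest in replicate 1, where Lcn2 was lowest, as were 5 of the 9 tested. In TPM replicate 1 was also the highest library for 106 (60.2%) of the 176 genes described above. A maximum in replicate 1 was therefore not particular to the defence proteins. Of the receptors of Lcn2, Lrp2 (megalin) was called higher with 19.2, 14.2 and 48.3 TPM in rEEOs and 0.05 TPM in each rBMSCs library. Slc22a17 was not called (15.9 ± 3.25 TPM in rEEOs and 11.7 ± 0.0624 TPM in rBMSCs; SD, n = 3; adjusted p = 0.0554 by edgeR's quasi-likelihood test).

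Among 14 tested receptors and inflammatory inducers of Lcn2, 7 were called higher, 1 lower and 6 not at all (median 1.47). Nfkbiz, the atypical inhibitor of NF-kappa B on which Lcn2 transcription depends in other epithelia, had 42.7, 97.8 and 143.0 TPM in rEEOs, 99.8-fold above rBMSCs in CPM (log2 fold change 6.64 ± 0.65, SE; adjusted p = 0.000237 by edgeR's quasi-likelihood test). Nfkbia, a feedback inhibitor of NF-kappa B, had 380, 568 and 581 TPM compared to 11.2 ± 1.69 in rBMSCs. Cebpb, a transcription factor of the same inflammatory response, had 177, 391 and 313 TPM compared to 81.2 ± 4.42 in rBMSCs, a ratio of 4.58 in CPM, and lost its call under 3 of 13 alternatives. Il1r1, the receptor of interleukin-1, was lower in rEEOs, at 0.77 ± 0.58 TPM compared to 18.4 ± 2.10. Nfkbiz, Nfkbia and Cebpb were lowest in replicate 1, as Lcn2 was, and Cebpb was also highest in replicate 2, whereas Nfkbiz and Nfkbia were highest in replicate 3. In TPM other genes of the list ran the opposite way. Tlr2 and Tlr4, toll-like receptors of bacterial products that were also called higher, had 17.6, 7.69 and 9.21 TPM and 23.0, 3.51 and 6.95 TPM in rEEOs and so were highest in replicate 1, as were the NF-kappa B subunit genes Nfkb1, Nfkb2 and Rela, which were not called. In TPM 6 of the 14 tested genes were lowest in replicate 1 and 7 were highest there. This count depends on the scale, since replicate 1 had the largest read total of the rEEOs libraries. Nfkb2 had 888, 789 and 883 reads and Rela 1443, 1143 and 1266. Relative to the read totals, replicate 1 was thus the lowest library for Nfkb2 and Rela.

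Granulocytes of bone marrow also carry Lcn2, and their markers were read in both groups. Of 11 listed markers 6 were held, and none exceeded 1.56 TPM in any rEEOs library. Ngp, a granule protein, was at 0 in rEEOs, and Elane and Prtn3, granule proteases, reached at most 0.26 TPM. The 6 markers summed to 1.53 to 2.07 TPM in rEEOs and 0.11 to 0.96 TPM in rBMSCs. Itgb2, the 1 marker tested, was called higher at 0.94 ± 0.60 TPM in rEEOs and 0 in rBMSCs. S100a9 and S100a8 were listed with the defence proteins and not among these markers. They had 154.5, 24.5 and 79.8 TPM and 51.4, 3.63 and 15.3 TPM in rEEOs replicates 1, 2 and 3, and 0 in rBMSCs. S100a9 was called higher and S100a8 was not tested.

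Of 20 listed uterine gland genes read beside Kap, 15 were held and 9 tested, with 6 higher, 1 lower and 2 not called (median 7.87, or 5.10 with bounds). Foxa2, which the study used as a marker of mature glands, had 11.1, 0.09 and 3.46 TPM in rEEOs, and Cuzd1 had 4.79, 0.28 and 11.1 TPM. Both were at 0 in rBMSCs and were not tested, as they had 2 and 7 reads in rEEOs replicate 2. Lif was not called, at 29.25, 4.31 and 9.36 TPM in rEEOs compared to 22.1 ± 2.99 TPM in rBMSCs. Spp1 (osteopontin) had 4067, 12297 and 12565 TPM in rEEOs compared to 363 ± 5.79 TPM in rBMSCs, and so was as abundant as Lcn2 but not as restricted to rEEOs. Igfbp1 had 1799, 2816 and 1643 TPM and shared with Lcn2 its highest value in replicate 2. S100g, a calcium-binding protein that estrogen induces in the rat uterus, had 39.0, 142.6 and 364.7 TPM. Gpx3, a secreted glutathione peroxidase, was lower in rEEOs, with a log2 fold change of −2.45, and lost its call under 4 of 13 alternatives.

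Sex steroids are known to regulate Kap, Lcn2 and Muc1 in the rodent uterus or kidney. Of 9 tested receptors and targets 2 were called higher, 3 lower and 4 not at all (median −0.72). Esr1, the estrogen receptor, had 164.8, 50.8 and 42.8 TPM in rEEOs and was at least 1431-fold higher than the floor in rBMSCs. Its replicate 1 value stood apart from the other 2, which was not the order of Kap or Lcn2. Greb1, an estrogen target, had 2.96, 0.41 and 0.77 TPM. Hoxa10 was at 0 in rEEOs and 28.9 ± 0.60 TPM in rBMSCs, and Fkbp5 and Igf1 were also lower in rEEOs. Calls for Fkbp5 were lost under 6 of 13 alternatives.

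Of the other aquaporins, 6 of 10 were held but only 2 passed the filter, so that few were compared with Aqp5. Aqp8 had 602, 288 and 52.1 TPM in rEEOs and at most 0.09 TPM in rBMSCs, and was called higher. Aqp1, the water channel of vessels and mesenchyme, was lower, with 8.05, 0.14 and 14.8 TPM in rEEOs compared to 390 ± 36.5 TPM. Aqp5 exceeded each of the other 6 in every rEEOs library. With a filter of 1 count 5 were called, 4 of them higher.

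Beside Muc1, 13 of the 14 mucins and partners held were tested, with 7 called higher, 1 lower and 5 not called (median 2.01). Muc4, another membrane mucin, had 348, 64.1 and 139 TPM in rEEOs, in the same library order as Muc1 and above it in 2 of 3 libraries. St3gal1, which sialylates mucin-type O-glycans, was called higher, with a log2 fold change of 5.03 ± 0.23 (SE). Lgals3, a lectin that binds mucin glycans, was just past the threshold at 2.01 ± 0.23 and lost its call under 8 of 13 alternatives. Mmp14, a protease known to shed Muc1, was lower, with a log2 fold change of −2.13, and lost its call under 2 of 13 alternatives. With limma on log2(TPM + 1) 5 genes of this list were called, 3 higher and 2 lower, where 3 of the 8 called above were below the TPM minimum and were not tested.

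Beside Cxcl17, 10 of 15 listed CXC chemokines and receptors were held, 9 were tested, 8 were called higher and 1 lower (median 8.83, or 6.10 with bounds). Cxcl6 had 1029, 48.6 and 259 TPM in rEEOs, Cxcl1 301, 177 and 497 TPM, and Cxcl16 99.7, 122 and 124 TPM. Cxcl6 and Cxcl1, which attract neutrophils, were lowest in replicate 2, as Kap and Aqp5 were. Cxcl17 was lower in mean TPM than these 3, and in TPM its rEEOs libraries lay closer together. Cxcl12 was the 1 gene lower, at 0 in rEEOs and 63.2 ± 2.04 TPM in rBMSCs. Gpr35, a proposed receptor of Cxcl17, was not analysed here.

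**Figure D5:**
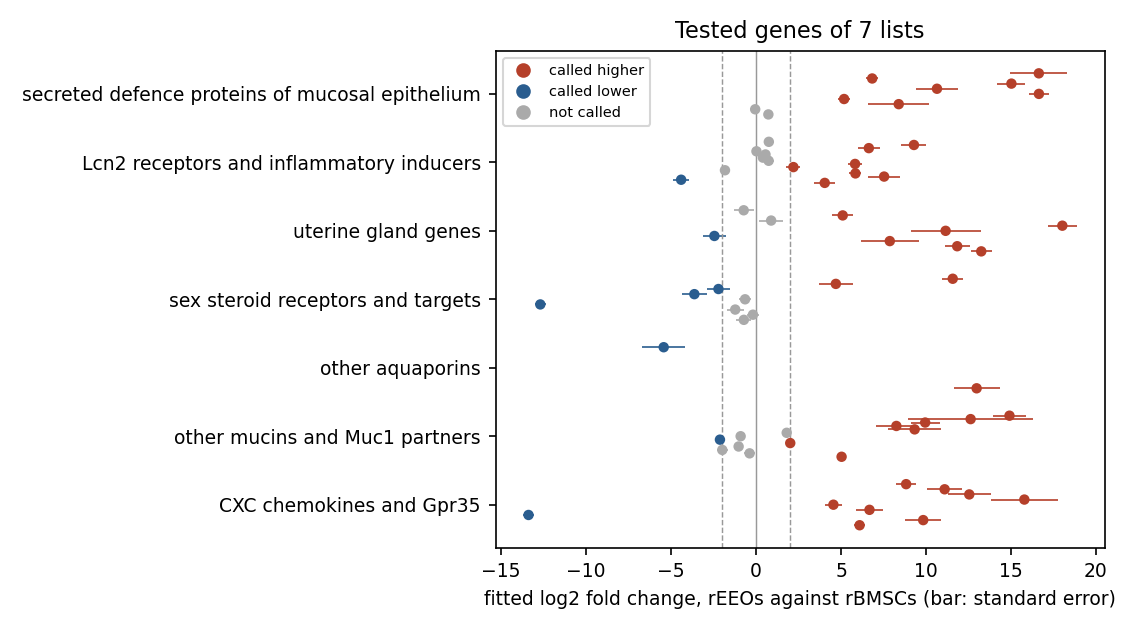
Fitted log2 fold change between rEEOs and rBMSCs (horizontal axis, positive where higher in rEEOs; bars are standard errors) for each tested gene of the 7 gene lists (vertical axis), colored red where called higher, blue where called lower and grey where not called, with dashed lines at the fold threshold. Of the 9 CXC chemokines 8 are called higher and 1 lower, while the steroid list is split into 2 higher, 3 lower and 4 not called. Over all genes tested 16.3% were called higher and 13.3% lower.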

How the data were processed

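Poly(A)-selected RNA of 3 rEEOs and 3 rBMSCs samples had been sequenced on a BGISEQ platform. Per the labels and methods, the authors trimmed reads with Trim Galore, aligned them to the rat genome (Rnor_6.0) with Bowtie2 2.2.5 and estimated expression with RSEM. The deposited table holds an expected count, a TPM and an FPKM per gene and library. Expected counts are not normalized, and 7.31% to 8.44% of them were not whole. FPKM in the deposited table was used only to check that it is a constant multiple of TPM. The table as used here stops inside its last row and holds 13728 genes, with 81.3% to 82.7% of the total TPM; others were not analysed here.

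Counts were rounded and fitted for genes with at least 10 counts in 3 libraries by edgeR 4.0.16 (TMM, glmQLFit, glmQLFTest) in R 4.3.3, with Benjamini-Hochberg adjustment over the 10607 genes. Folds against groups at or under 3 counts in every library are lower bounds against 3 counts per library, taken at the library where those are worth most, and cover counting error only. In simulated data 200 of the 10607 genes were given a true log2 difference of 3 in random directions. Of these 189 were recovered, with 4 false calls among the other genes. Far fewer genes differed there than the 29.7% called between rEEOs and rBMSCs. The simulation therefore did not cover the dependence on scaling, and its false calls do not carry over to the real comparison. Alternatives were DESeq2 1.42.0 without the count filter, limma 3.58.1 on log2(TPM + 1) or log2(TPM + 0.1) over the 10076 genes with at least 1 TPM in 3 libraries, other scalings and filters, a replicate block and leaving out each library; chosen after seeing the data were the spread in CPM of the library total and the closest genes in CPM.

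The 5 genes, the 7 gene lists and the 5 marker lists were chosen with earlier results of these data known. From each list were named the 3 called genes with the highest mean TPM in the higher group, up to 3 genes called lower by mean TPM in rBMSCs, and receptors or close relatives of the 5 genes, and for each of the 5 genes the 3 closest profiles. Orm1, Igfbp7, Eef1a1, Tlr2, Tlr4, Nfkb1, Nfkb2, Rela, Foxa2, Cuzd1, Lif, S100a8, S100a9 and uncalled marker genes were named after their values were seen. RefSeq promoters matched 10441 of the genes held by gene ID, including the 5.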

Additional observations from a re-analysis of the deposited data

How the results depend on the processing

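In CPM with TMM factors, which do not divide by transcript length, the rEEOs mean was 6073 for Lcn2, 182.4 for Muc1 and 30.5 for Cxcl17, and the mean rank by read count was 115.0 for Kap and 5086 for Cxcl17. The SD of log2 values was 0.27 for Muc1 and 0.26 for Cxcl17 with TMM factors, and 0.32 and 0.20 in CPM of the library total. Leaving out 1 rEEOs library gave an SD of log2(TPM + 1) of 0.37 (without replicate 2) to 0.82 for Lcn2, 0.40 (without replicate 2) to 1.95 for Kap, 0.12 (without replicate 2) to 1.20 for Aqp5 and 0.018 (without replicate 3) to 0.097 for Cxcl17. Mean TPM then ranged from 8228 to 12379 for Lcn2 and from 3154 to 6423 for Kap. With 3 libraries, leaving out 1 always moves a mean by less than 1 SD, so means and mean ranks were not judged by that measure.

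The count of all genes called was 4950 at an absolute log2 fold change above 1 and otherwise stayed within 1.5 times the 3145 reported. Scaling by library size only shifted the median log2 fold change over all genes from 0.08 to 0.46, and limma on TPM to between −0.24 and −0.22. The calls split into 2002 higher and 1206 lower with library size only, and into 1343 higher and 1528 lower with limma on log2(TPM + 0.1) and 1121 and 1202 on log2(TPM + 1), compared to 1733 and 1412 as reported. Limma, which tested only genes with at least 1 TPM in 3 libraries, called 3 genes of the steroid list, 5 of the mucin list and 0 granulocyte markers with either pseudocount, and 2 ciliated cell markers on log2(TPM + 1). The steroid genes Greb1 and Igf1 and the granulocyte marker Itgb2 were not tested there, and no tested gene of those 2 lists lost its call. Of the mucin list 3 called genes (Muc5b, Muc15 and Muc20) were not tested, Lgals3 lost its call and Egfr gained one, and of the ciliated cell markers Ccdc39 was not tested and Foxj1 lost its call. DESeq2, run without the count filter, called 5 other aquaporins and 2 granulocyte markers, and a filter of 1 count in any library called 5 and 3. Of 36 named genes of the lists, 30 kept their call under every alternative that tested them, 6 lost it under 1 or more (Cebpb, Gpx3, Fkbp5, Lgals3, Mmp14 and Foxj1), and 0 changed direction.

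Neither the labels nor the methods pair the samples by replicate number. Same-numbered libraries had correlations of deviations of 0.17, 0.19 and −0.17, and not every library correlated best with its own number. Deviations from a mean of 3 libraries depend on each other, so these values cannot settle whether samples were paired. With the number as a replicate block 3231 genes were called, 1710 higher and 1521 lower. No value here has more than 3 libraries a group, and Lcn2, Kap, Aqp5 and Cxcl17 cannot be placed below 3 reads in rBMSCs.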
